A study of Mus musculus with 6 samples.

Results

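The genes described here are those of antigen presentation and of the interferon response in mouse liver, taken by name. A gene belonged to the set if its symbol began with H2- (the mouse major histocompatibility complex, MHC), with Ifitm, or with Ifi, Ifit, Irf, Gbp, Stat or Oas followed by a digit, or if it was B2m, Cd74, Igtp, Irgm1, Isg15, Tap1, Tap2, Tapbp, Mx1 or Mx2. The array held 73 such genes of 8251 named genes, on 92 probe sets, and 59 of them had 1 probe set each. Of the 73 genes, 47 had a mean signal over the 6 arrays at or above the detection floor explained below and are called kept, out of 4844 kept genes in all, and 26 did not. The naming rule uses no measured value, but it was drawn up with earlier results of these data known, and keeping a gene used its mean signal. H2-Ke6, a steroid dehydrogenase gene within the MHC, and Irf2bp1, a protein that binds an interferon regulatory factor, carry the names without being MHC chains or interferon regulatory factors.

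Total RNA of whole liver from male mice 8 to 10 weeks old was hybridised to 6 arrays of 1 colour, 1 for each of 3 genotypes at each of 2 circadian times, CT02 and CT14. The genotypes were wild type on the C57BL/6 background, Clock mutant, and Cry-deficient, whose CT02 label names a double knockout of Cry1 and Cry2. CLOCK is the activator of the circadian transcription loop, and CRY1 and CRY2 are its repressors. The allele of the Clock mutant, the background of both mutants, the lighting before sampling and any pooling of mice were not given in the sources used. With 1 array a group there was no replicate error and no test, so every fold below compares single arrays.

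Interferons bind receptors that activate JAK kinases and STAT proteins. IRF9 is the DNA-binding part of a complex that switches on genes carrying an interferon-stimulated response element. Among the targets are GTPases that attack intracellular microbes, proteins that block virus entry or replication, and the machinery that shows peptides to T cells. Class I MHC molecules, a heavy chain with beta-2-microglobulin, are made by nearly all cells, hepatocytes included, whereas class II chains and their invariant chain CD74 are mainly products of macrophages, dendritic cells and B cells.

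All values are scaled units, the deposited intensity after each array was brought to a common scale, and 606 scaled units, the median of all scaled values, served as the floor. Before scaling, the arrays lay between -0.43 (Clock mutant, CT02) and 0.20 (labelled Cry-deficient, CT14) of the common level on the log2 scale. The Clock mutant CT02 array had an Actb 3' to 5' signal ratio of 2.68 and the Cry-deficient CT02 array 1.70, against 0.84 to 1.15 on the other 4, and Gapdh gave 2.37 on the latter array against 0.56 to 0.72 on the others. These ratios are signs of RNA quality, and the part of either CT02 mutant array's RNA quality in the results was not tested. Cry1 read 1833 (CT02) and 2723 (CT14) for wild type and 3845 and 4718 on the arrays labelled Cry-deficient, and Cry2 read 1215 and 2256 against 1185 and 1344. The place of these probe sets within each gene was not given, so they do not check the label, and "Cry-deficient" below means the arrays so labelled. Clock read 2430 and 1552 for wild type against 1640 and 2069 for its mutant, which checks nothing where the allele is not given. All 7 hepatocyte markers were kept, and their summed signal on the 6 arrays was 85144 (Clock mutant, CT14) to 116360 (Clock mutant, CT02). Among them Apoa1 was under the floor on every CT14 array. Because the RNA came from whole liver, fewer cells of a type and less RNA per cell cannot be told apart.

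The highest array stood a median of 1.88-fold above the lowest over the 47 kept members and 1.77-fold over the 4844 kept genes. Of the 329 ratios of the kept members, 47 genes in 7 comparisons, 33 were at least 2-fold (10%, against 7.26% over all kept genes). These lay in 21 genes (44.7%, against 27.3% of all kept genes), and 26 kept members reached 2-fold in none. B2m and Gbp7 were among the steadiest, with spans of 1.21-fold and 1.20-fold, and Irf9, Cd74, Ifitm10 and H2-Q5 among the widest, with spans of at least 4.53-fold, 3.92-fold, at least 3.80-fold and 3.53-fold. Where one of the compared values lay under the floor the fold is a bound, written as "at least". Where 2 values follow a genotype, the first is CT02 and the second CT14.

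**Figure D1:**
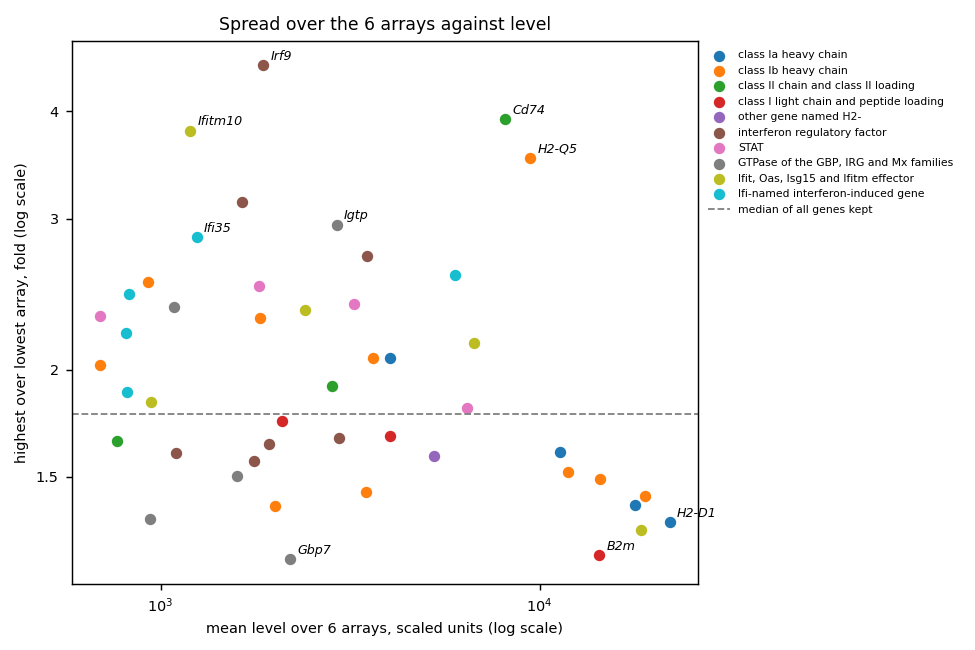
Fold of the highest over the lowest of the 6 arrays after flooring (vertical, log axis) against mean signal in scaled units (horizontal, log axis) for the 47 kept members, 1 point a gene, coloured by role, with a dashed line at the median of all genes kept. Irf9, Cd74, Ifitm10 and H2-Q5 lie at the top, and B2m and Gbp7 at the bottom.

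Among the interferon regulatory factors, 7 of 8 were kept, and 2 of them, Irf9 and Irf7, were lower on both Clock mutant arrays than on the other 4. Of all kept genes 16.5% had this order, so 2 of 7 is not read as a trait of the role. Irf9, the DNA-binding subunit of the complex that answers type I interferon, gave 2398 then 2087 for wild type, 973 then 526 for the Clock mutant and 2454 then 2744 for the Cry-deficient mice. Both Clock mutant values lay below the other 4 without overlap, 2.46-fold below wild type at CT02 and at least 3.44-fold below it at CT14. Irf7, an inducible factor that amplifies interferon production, read 2795 then 1763 on the wild-type pair, 916 then 892 on the Clock mutant pair and 1934 then 1564 on the Cry-deficient pair. Both Clock mutant values were again lowest, 3.05-fold and 1.98-fold below wild type. A second, dimmer Irf7 probe set, above the floor on 3 arrays, gave a Clock mutant over wild type log2 ratio of -0.01 at CT02 and was under the floor on both arrays at CT14, which gives no ratio. With the probe sets averaged the log2 ratio at CT02 was -0.81.

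Irf1, induced by interferon gamma, gave 3200 then 3136 for wild type, 3970 then 1855 for the Clock mutant and 5030 then 3830 for the Cry-deficient mice. It was 2.14-fold lower at CT14 than at CT02 in the Clock mutant, a difference that did not reach 2-fold in the unscaled deposited values. Irf3, Irf5, Irf8 and Irf2bp1 stayed within 2-fold in all 7 comparisons, with single values from 838 (Irf5, Cry-deficient CT14) to 3543 (Irf2bp1, wild type CT02).

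The 250 bases before the annotated start of Irf9 (chr14:55603735-55603984, plus strand) and Irf7 (chr7:141266425-141266674, minus strand) are shown because these genes had the largest differences of this role. They are from RefSeq, build GRCm38.p6, 5' to 3' along the gene, and neither holds GAAANNGAAA, the core of an interferon-stimulated response element, TTCNNNGAA, a STAT site, or CACGTG, the E-box that CLOCK and BMAL1 bind. The window is that of the annotated start farthest upstream, and no match says only that these letters are absent from this window.
Irf9: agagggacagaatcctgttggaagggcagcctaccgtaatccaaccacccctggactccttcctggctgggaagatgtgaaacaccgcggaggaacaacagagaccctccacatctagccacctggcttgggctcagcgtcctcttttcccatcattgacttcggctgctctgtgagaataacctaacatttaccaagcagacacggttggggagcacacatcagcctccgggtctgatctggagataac
Irf7: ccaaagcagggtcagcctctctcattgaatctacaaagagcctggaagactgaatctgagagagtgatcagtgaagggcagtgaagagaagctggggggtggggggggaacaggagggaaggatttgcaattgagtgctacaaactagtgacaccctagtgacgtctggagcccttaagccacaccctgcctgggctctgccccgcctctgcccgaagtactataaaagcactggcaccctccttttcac

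The STAT genes, whose proteins carry cytokine signals to the nucleus, had the widest median span of any role with 4 or more kept genes apart from the Ifi-named genes, 2.35-fold over 4 kept of 5 members. Stat6, the factor activated by interleukin 4, read 1915 then 1616 on the wild-type pair, 879 then 2134 on the Clock mutant pair and 2177 then 2199 on the Cry-deficient pair. The Clock mutant CT02 array stood alone below the others, 2.18-fold below wild type at that time and 2.43-fold below the Clock mutant at CT14. Stat5a and Stat5b transmit growth hormone signals in liver. Stat5a gave 4661 then 3714 for wild type, 2365 then 3141 for the Clock mutant and 1953 then 3654 for the Cry-deficient mice, and was 2.39-fold below wild type in the Cry-deficient array at CT02. A second Stat5a probe set gave a log2 ratio of -1.30 for that comparison, and for Clock mutant over wild type at CT14 a bound of -1.88, its Clock mutant value (521) being under the floor.

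Stat5b read 646 then 581 on the wild-type pair, 1401 then 682 on the Clock mutant pair and 429 then 417 on the Cry-deficient pair. It was near or below the floor on every array except that of the Clock mutant at CT02, where it was 2.17-fold above wild type, and 2.06-fold above the Clock mutant at CT14. The mean of Stat5b over the other arrays lay under the floor, so it was kept only through that array, on which both differences rest. With the filter taken without that array Stat5b was not kept. In the unscaled deposited values neither Stat5b difference reached 2-fold. Stat3, the factor of the acute-phase response, gave 5771 then 4772 for wild type, 8453 then 8323 for the Clock mutant and 6519 then 4688 for the Cry-deficient mice. Both Clock mutant values exceeded the other 4 without reaching 2-fold over wild type. A second, dimmer Stat3 probe set did not share this order. It read 2847 then 2065 for wild type, 2979 then 2868 for the Clock mutant and 4084 then 2345 for the Cry-deficient mice.

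**Figure D2:**
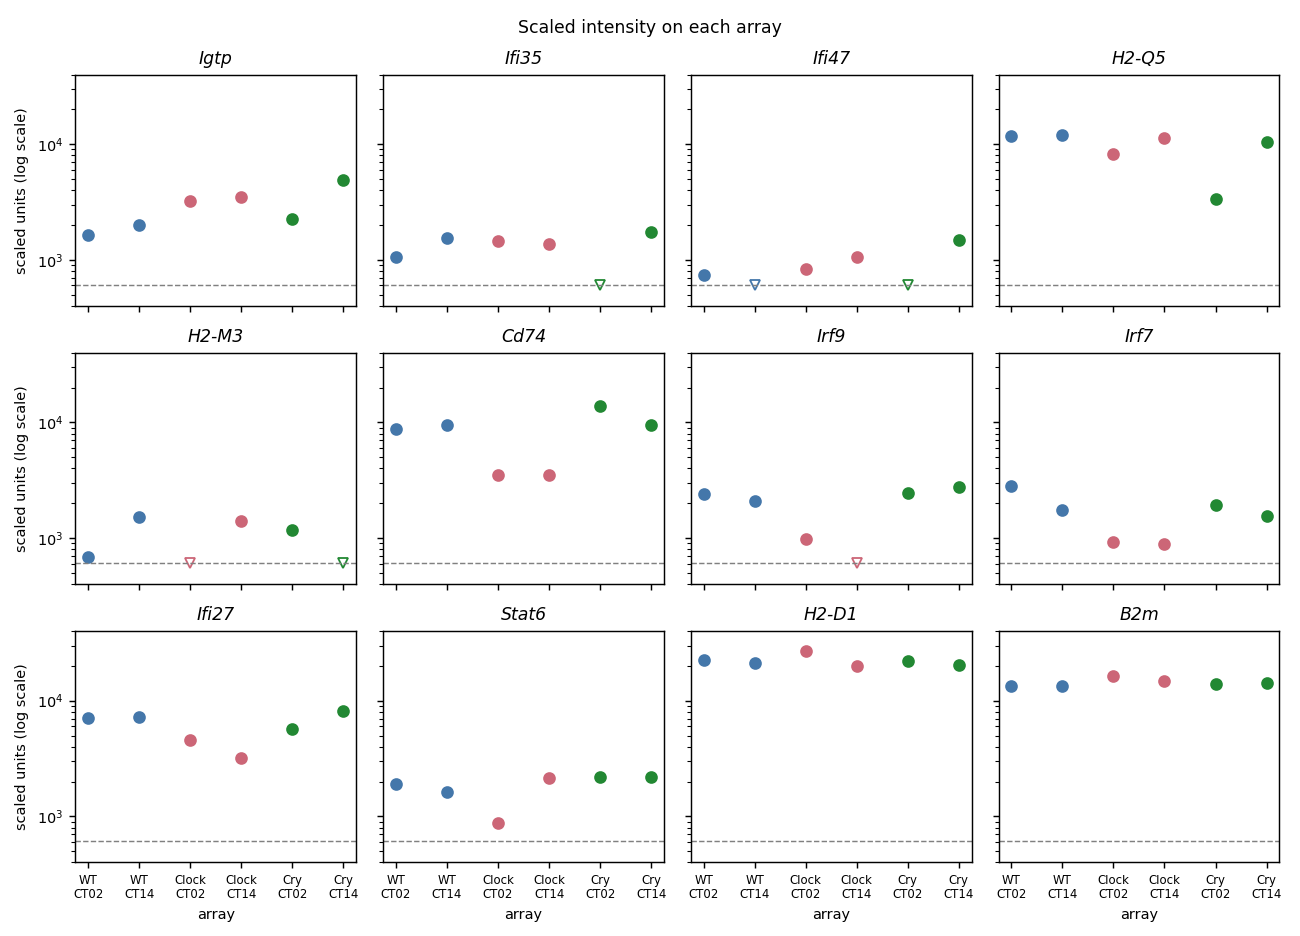
Scaled signal on a log axis of 12 kept members on each of the 6 arrays (WT, wild type; Clock, Clock mutant; Cry, labelled Cry-deficient), 1 point an array, with open triangles for values at or below the floor and a dashed line at the floor of 606 scaled units. Irf9, Irf7, Ifi27 and Cd74 have both Clock mutant points lowest, and Igtp has both wild-type points lowest.

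The GTPases of the GBP, IRG and Mx families act against intracellular bacteria, protozoa and viruses, and 5 of 8 were kept. Igtp (also known as Irgm3), a GTPase of the endoplasmic reticulum induced by interferon gamma, read 1648 then 1984 on the wild-type pair, 3249 then 3503 on the Clock mutant pair and 2233 then 4862 on the Cry-deficient pair. All 4 mutant arrays lay above both wild-type arrays. The Clock mutant was 1.97-fold above wild type at CT02 and 1.77-fold at CT14, and the Cry-deficient arrays 1.36-fold and 2.45-fold, with a 2.18-fold higher value at CT14 than at CT02. Irgm1, of the same family, read 1180 to 1774 over the 6 arrays and did not share this order, since wild type held its highest values.

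Mx2, of a family of dynamin-like antiviral proteins, gave 1218 then 787 for wild type, 1040 then 1717 for the Clock mutant and 725 then 1025 for the Cry-deficient mice. It was 2.18-fold above wild type in the Clock mutant at CT14 and below it at CT02. Gbp7 (1986 to 2389) and Gbp3 (839 to 1122) stayed well within 2-fold.

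The bases before the start of Igtp (chr11:58199306-58199555, plus strand, RefSeq, GRCm38.p6) are shown because Igtp was a named marker of the set. Its promoter had both searched interferon-related motifs, in capitals, as did that of Gbp7, which is not shown. TTCTAGGAA, a match to TTCNNNGAA, lies 45 to 37 bases before the start, and GAAACTGAAA, a match to GAAANNGAAA, 34 to 25 bases before it, so they do not overlap.
Igtp: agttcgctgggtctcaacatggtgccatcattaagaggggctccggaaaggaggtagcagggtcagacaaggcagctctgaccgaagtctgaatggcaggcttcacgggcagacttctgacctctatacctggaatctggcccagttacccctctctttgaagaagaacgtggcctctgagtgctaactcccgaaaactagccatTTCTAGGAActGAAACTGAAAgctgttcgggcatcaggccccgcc

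A promoter entry was found for 36 of the 47 kept members, and motifs were searched on both strands in the 250 bases before the start. GAAANNGAAA was present in 7 of them (19.4%), B2m, Gbp3, Gbp7, Ifi207, Ifitm2, Igtp and Irgm1, and in 823 of all 27025 promoters of this length (3.05%). TTCNNNGAA was present in 7 (19.4%), Gbp7, H2-M3, Ifitm6, Igtp, Irf1, Irf2bp1 and Irf8, and in 1929 of all (7.14%). CACGTG was present in 0 of the 36 and in 1633 of all (6.04%). A match is a run of letters and not evidence of binding, and the genes with a GAAANNGAAA match held both wide spans (Igtp, 2.95-fold) and the narrowest (Gbp7, 1.20-fold).

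Of the Ifit, Oas, Isg15 and Ifitm genes, 5 of 10 were kept, all of them Ifitm genes, whose proteins sit in membranes and, for Ifitm1, Ifitm2 and Ifitm3, restrict virus entry. Ifitm1 read 1984 then 3035 on the wild-type pair, 1858 then 1482 on the Clock mutant pair and 3483 then 2596 on the Cry-deficient pair. Both Clock mutant values lay below the other 4, and the difference from wild type was 2.05-fold at CT14. Ifitm2 gave 6865 then 6334 for wild type, 8531 then 3967 for the Clock mutant and 7862 then 6750 for the Cry-deficient mice. It was 2.15-fold lower at CT14 than at CT02 in the Clock mutant, and not 2-fold in the unscaled deposited values. Ifitm3 read 18508 then 18276 on the wild-type pair, 19443 then 16254 on the Clock mutant pair and 21160 then 17743 on the Cry-deficient pair, the narrowest span of this role at 1.30-fold.

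Ifitm10 read 1061 then 1725 on the wild-type pair, below the floor and then 2301 on the Clock mutant pair, and 1395 then 1123 on the Cry-deficient pair. Its at least 3.80-fold higher value at CT14 in the Clock mutant rested on the negative value of the CT02 array, -422 scaled units. Ifitm6 read 705 to 1291, with both Clock mutant values above the other 4.

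The Ifi-named genes are a mixed group named for induction by interferon, and 5 of 9 were kept. Ifi27, a mitochondrial and membrane protein, gave 7100 then 7209 for wild type, 4542 then 3175 for the Clock mutant and 5655 then 8186 for the Cry-deficient mice. Both Clock mutant values were lowest, 1.56-fold below wild type at CT02 and 2.27-fold at CT14. Ifi35 read 1066 then 1533 on the wild-type pair, 1457 then 1379 on the Clock mutant pair and 311 then 1731 on the Cry-deficient pair. The Cry-deficient CT02 array alone was below the floor, so the value at CT14 was at least 2.86-fold higher there.

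Ifi47, an IRG-family GTPase despite its name, gave 735 then 288 for wild type, 833 then 1046 for the Clock mutant and 574 then 1486 for the Cry-deficient mice. At CT14 it was at least 2.45-fold above wild type in the Cry-deficient array, and at least 2.45-fold above the Cry-deficient CT02 array, both of those lower values being under the floor. Ifi204, a DNA-sensing protein, read 1225 then 592 on the wild-type pair, 1339 then 525 on the Clock mutant pair and 704 then 491 on the Cry-deficient pair. All 3 CT14 values were below the floor, which makes it at least 2.02-fold lower at CT14 in wild type and at least 2.21-fold lower in the Clock mutant. Ifi204 was thus kept only through its CT02 arrays, on which both differences rest. Of its other 2 probe sets, one was under the floor on every array. The other gave a log2 ratio of -0.07 in wild type and of at least 0.15, in the opposite direction, in the Clock mutant, and the difference in the Clock mutant did not reach 2-fold in the unscaled deposited values, nor that in wild type after quantile normalization. Ifi207, of the same family, read 300 in the Clock mutant at CT02 and 675 to 1141 on the other arrays.

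The promoter of Ifi35 (chr11:101448162-101448411, plus strand, RefSeq, GRCm38.p6) is shown because Ifi35 was among the members with the largest differences. Like Igtp, H2-Q5 and Ifi47, it was over 2-fold higher at CT14 than at CT02 in the Cry-deficient arrays. The promoter of Ifi35 held none of the 3 motifs. That of Ifitm10, also among the largest differences, held none either, and H2-Q5 had no promoter entry.
Ifi35: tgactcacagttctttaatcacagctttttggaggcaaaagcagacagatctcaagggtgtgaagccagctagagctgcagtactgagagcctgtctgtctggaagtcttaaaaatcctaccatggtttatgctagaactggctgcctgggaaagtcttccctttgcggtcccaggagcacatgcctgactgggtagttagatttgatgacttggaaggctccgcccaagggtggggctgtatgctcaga

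**Figure D3:**
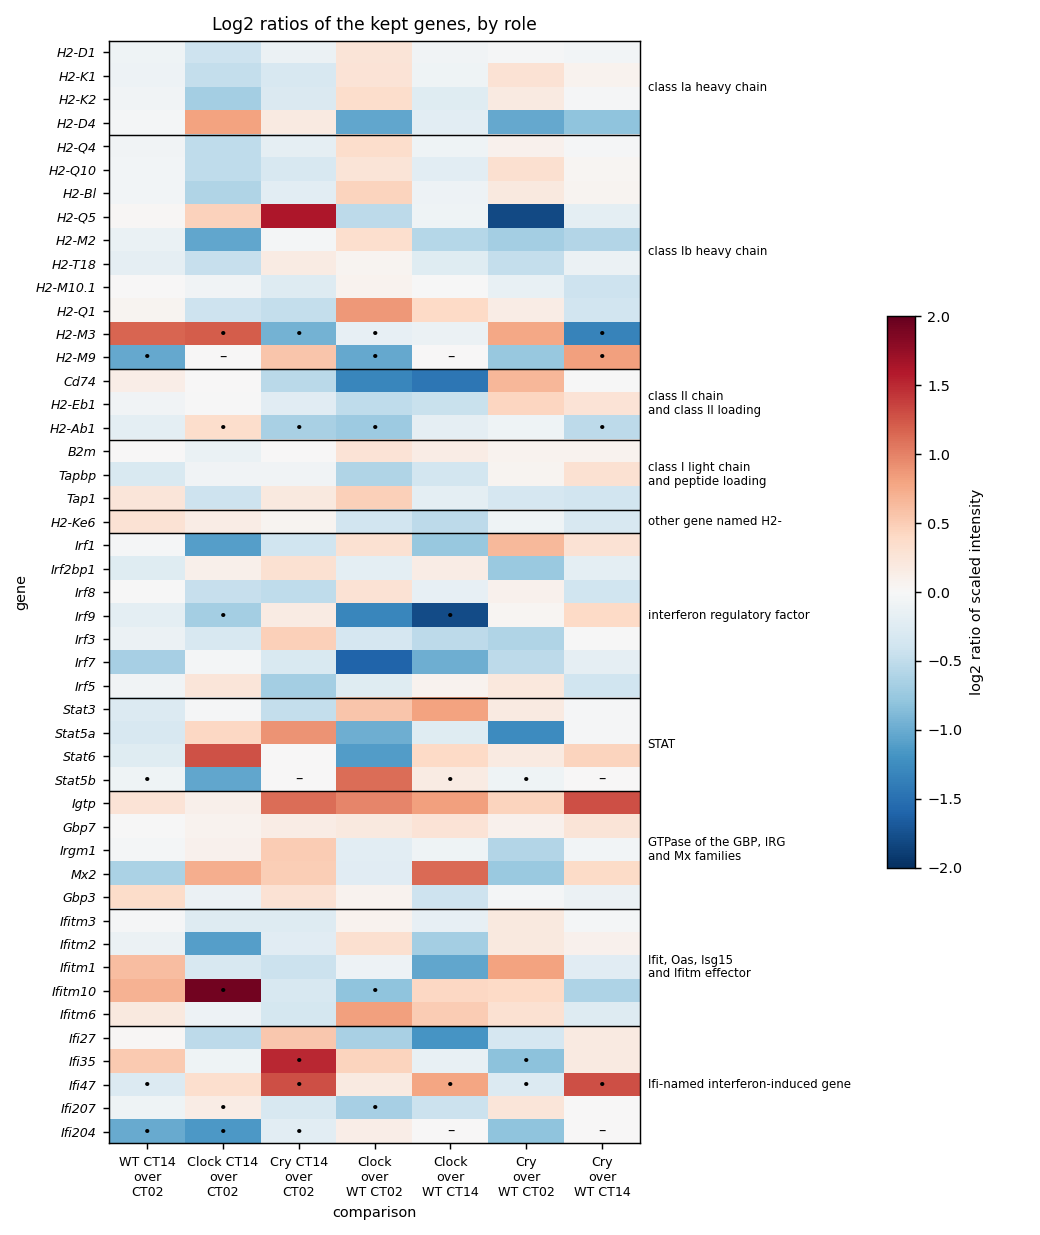
Log2 ratios of all 47 kept members (rows, by role) in the 7 comparisons (columns), red where higher and blue where lower, with a dot where the value is a bound and a dash where both arrays were at the floor. The Clock mutant over wild type columns show Irf9, Irf7, Cd74 and Ifi27 lower at both times, and Igtp and Ifi47 are higher in the Cry-deficient over wild type CT14 column.

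Class I heavy chains, which carry peptides from inside the cell to CD8 T cells, were the largest role, with 14 of 16 kept. H2-D1, a classical chain, gave 22314 then 21109 for wild type, 26705 then 20101 for the Clock mutant and 21916 then 20223 for the Cry-deficient mice. H2-Q4, a nonclassical chain, read 18618 and 17795, then 23833 and 16710, then 19696 and 17463, in the same order. In both genes the probe set used was lower at CT14 than at CT02 in each genotype on this scale, most in the Clock mutant.

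The 6 class I chains with a mean of at least 10000 scaled units, H2-Bl, H2-D1, H2-K1, H2-K2, H2-Q10 and H2-Q4, all had every CT14 array below every CT02 array on this scale. Their median log2 ratio of CT14 over CT02 was -0.07 for wild type, -0.51 for the Clock mutant and -0.25 with the Cry-deficient label. This order depended on the scaling: every CT14 array lay below every CT02 array in 3 of the 6 after quantile normalization or lowess correction and in 0 of them in the unscaled deposited values. The medians were then -0.23 and -0.24 for the Clock mutant after those corrections and -0.01 unscaled, and -0.17, -0.15 and -0.04 for the Cry-deficient mice. The 587 kept genes that bright had medians of -0.01, -0.27 and -0.14, in the same order of genotypes, and 21.1% of them also had every CT14 array below every CT02 array, against 7 of 8 members that bright (87.5%). These 6 chains share sequence: 11 of the 14 kept class I heavy chains, and 12 of the 17 kept H2 genes, were read by probe sets whose names mark them as shared between genes or less specific, so their order is not that of 6 independent genes. The 3 probe sets of H2-D1 gave log2 ratios of 0.26, 0.33 and 0.49 for Clock mutant over wild type at CT02. For CT14 over CT02 the dimmer H2-D1 probe sets gave 0.01 and 0.09 in wild type, and were lower at CT14 in both mutants. A dimmer H2-K1 probe set gave 0.14 in wild type, 0.28 in the Clock mutant and -0.15 in the Cry-deficient arrays. Another H2-K1 probe set was under the floor on every array. The order of times is thus that of each gene's brightest probe set. None of the 6 chains reached 2-fold in any comparison.

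**Figure D4:**
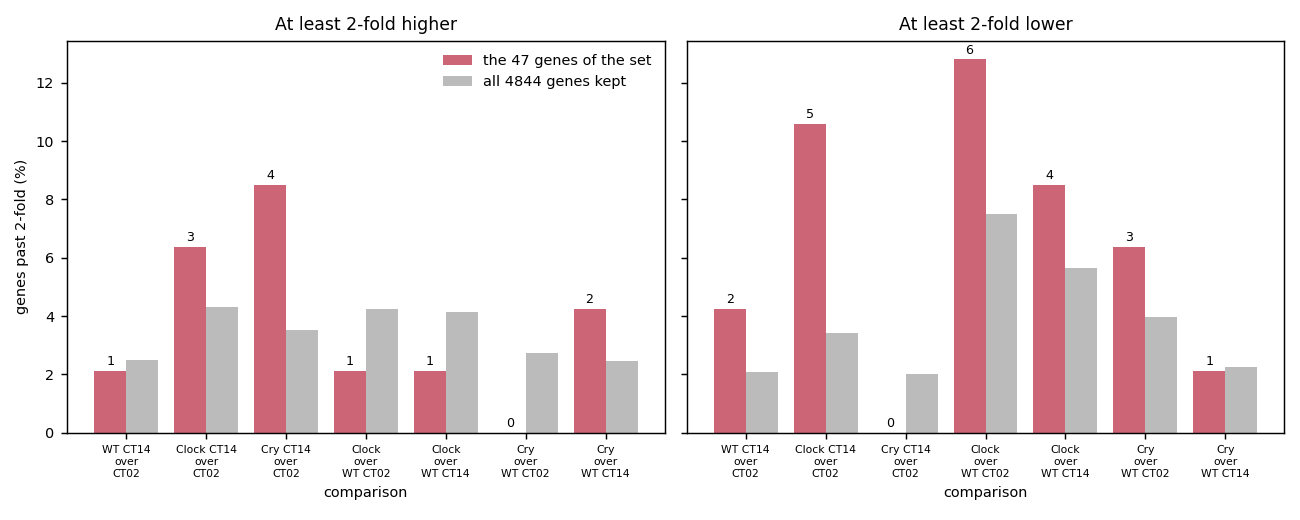
Percent of the 47 kept members (bars, with the number of members above) and of all genes kept that were at least 2-fold apart in each comparison and direction, on a linear axis from 0. The members' share exceeds that of all genes most for Clock mutant CT14 over CT02, lower (10.6% against 3.43%), a direction that turned in the unscaled deposited values (0 lower), and lies below it in others. The members counted in that share include Stat5b, kept only through the Clock mutant CT02 array, and Ifi204, kept only through its CT02 arrays.

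Other class I chains differed singly. H2-M3, which presents formylated peptides of bacteria and mitochondria, read 683 then 1534 on the wild-type pair, 225 then 1407 on the Clock mutant pair and 1166 then 560 on the Cry-deficient pair. It was 2.25-fold higher at CT14 in wild type and at least 2.32-fold higher in the Clock mutant, but at least 1.92-fold lower in the Cry-deficient arrays, which placed the Cry-deficient array at least 2.53-fold below wild type at CT14. The other H2-M3 probe set was at or below the floor on 5 arrays and read 773 on that of the Clock mutant at CT02, so it did not show this pattern, and with the probe sets averaged none of the 3 differences reached 2-fold.

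H2-Q5 gave 11742 then 11882 for wild type, 8166 then 11241 for the Clock mutant and 3363 then 10372 for the Cry-deficient mice. The Cry-deficient CT02 array stood alone, 3.49-fold below wild type and 3.08-fold below the Cry-deficient CT14 array. H2-D4 read 5539 then 5401 on the wild-type pair, 2681 then 4675 on the Clock mutant pair and 2738 then 3104 on the Cry-deficient pair, so at CT02 both mutants were lower than wild type, 2.07-fold and 2.02-fold. Neither H2-D4 difference reached 2-fold when its probe sets were averaged or after lowess correction, and the other H2-D4 probe set was under the floor on every array. H2-M2 read 4343 and 3979, then 5481 and 2676, then 2715 and 2656, and was 2.05-fold lower at CT14 in the Clock mutant, though not in the unscaled deposited values. H2-M9 was above the floor on only 3 arrays (1229 in wild type at CT02, 729 and 1073 with the Cry-deficient label, and 379, 377 and 368 on the remaining 3). Wild type at CT14 and the Clock mutant at CT02 were each at least 2.03-fold below wild type at CT02. The mean of H2-M9 over the other arrays lay under the floor, so it was kept only through that wild-type value, on which both differences rest.

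Of the light chain and peptide-loading genes, 3 of 4 were kept and none reached 2-fold. B2m, the light chain of every class I molecule, gave 13366 then 13461 for wild type, 16234 then 14862 for the Clock mutant and 14059 then 14196 for the Cry-deficient mice, with both Clock mutant values highest on this scale. Tap1, a subunit of the peptide transporter into the endoplasmic reticulum, read 1579 to 2752, and its partner Tap2 was not kept. Tapbp (tapasin), which holds class I chains at that transporter, read 4729 then 3810 on the wild-type pair, 3102 then 2948 on the Clock mutant pair and 4936 then 4689 on the Cry-deficient pair. Both Clock mutant values were lowest. A second Tapbp probe set had the same order, with 2337 and 2688 in the Clock mutant and 3560 to 5573 elsewhere, whereas the third was lowest in the Cry-deficient CT02 array (444). H2-Ke6 gave 5520 then 6717 for wild type, 4234 then 4671 for the Clock mutant and 5173 then 5366 for the Cry-deficient mice, all within 2-fold.

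The class II genes, which present peptides taken up from outside the cell, were mostly too dim: 3 of 11 were kept, H2-Ab1, H2-Eb1 and Cd74. Cd74, the invariant chain that guides class II molecules to the endosome, read 8738 then 9569 on the wild-type pair, 3528 then 3532 on the Clock mutant pair and 13826 then 9537 on the Cry-deficient pair. Both Clock mutant arrays lay far below the other 4, 2.48-fold and 2.71-fold below wild type, and remained so under every one of the 8 alternative settings tried. H2-Eb1, a class II beta chain, gave 2903 then 2761 for wild type, 2036 then 2033 for the Clock mutant and 3896 then 3323 for the Cry-deficient mice, with both Clock mutant values lowest as well, and did not reach 2-fold. H2-Ab1 read 1000 and 875, 539 and 775, and 946 and 471, near the floor.

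Markers of the cells that make class II were read beside these genes. The summed signal of the 11 macrophage markers kept of 12 on the array was 39015 then 37665 on the wild-type pair, 29443 then 30271 on the Clock mutant pair and 53317 then 41347 on the Cry-deficient pair, lowest in the Clock mutant at both times, as was Cd74. Their median log2 ratio of Clock mutant over wild type was -0.45 at CT02 and -0.32 at CT14. Single markers differed: C1qa was above wild type at both times (6165 and 5150 against 4779 and 5110), Cd68 and Tyrobp at CT02, and Lyz2 at CT14. The remaining kept markers were below wild type at each time or had both values under the floor. The sum of the 3 B-cell markers kept of 7 was 10583 and 11045 in the Clock mutant and 8199 to 10816 on the other arrays, and Cd22 and Cr2 were under the floor everywhere. The 2 dendritic-cell markers kept of 6, Itgax and Flt3, summed to 3463 to 5059, with no low value in the Clock mutant. For T and NK cells 1 of 10 markers, Cd4, was kept, and Cd3d, Cd3e, Cd3g and Cd8a were under the floor on every array. The part of macrophage number in the Cd74 difference was not tested.

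**Figure D5:**
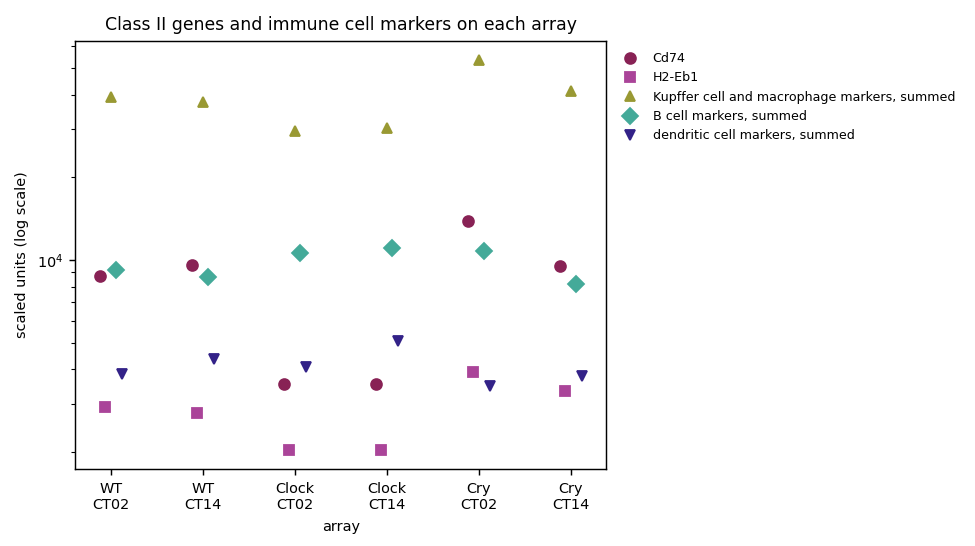
Signal of Cd74 and H2-Eb1 and summed signal of macrophage, B-cell and dendritic-cell markers on the 6 arrays, in scaled units on a log axis, 1 point an array for each. The Clock mutant arrays are lowest for Cd74, H2-Eb1 and the macrophage sum, and not for the other sums.

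Among the 26 members not kept were Ifit1, Ifit2, Ifit3, Isg15, Mx1, Oas1g and Ifi27l2a, and also Gbp2, Gbp2b, Irf4, Stat4, Tap2 and 8 class II genes. For 17 of the 26 every array was at or below the floor, and 9 exceeded it on some array. Isg15, a ubiquitin-like protein, read 917 in wild type at CT02 and 1180 in the Cry-deficient array at CT14, and was under the floor elsewhere. H2-Aa, a class II alpha chain, read 1205 and 1290 in the Cry-deficient arrays and was under the floor on the other 4. Ifit1 exceeded the floor in the Cry-deficient array at CT14 alone (879). A value under the floor means not well above background, not that the gene was off.

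The counts of kept members past 2-fold are read against all 4844 kept genes. At CT14 over CT02 in wild type 1 member was higher (2.13%, against 2.48% of all genes) and 2 lower (4.26%, against 2.09%). In the Clock mutant 3 were higher (6.38%, against 4.31%) and 5 lower (10.6%, against 3.43%), a split of 5 higher and 0 lower in the unscaled deposited values, where the median of all genes moved to 0.45. In the Cry-deficient arrays 4 were higher (8.51%, against 3.53%) and 0 lower (against 2.02%). H2-M9, counted as lower in wild type, and Stat5b, counted as lower in the Clock mutant, were kept only through their CT02 values in those genotypes. Ifi204, counted as lower in both, was kept only through its CT02 arrays.

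The comparisons of the mutants with wild type share the wild-type arrays. At CT02 the Clock mutant had 1 member higher (2.13%, against 4.25%) and 6 lower (12.8%, against 7.51%), or 0 and 11 in the unscaled deposited values, where the median of all genes moved to -0.52. Stat5b, the member higher, was kept only through the Clock mutant CT02 array. H2-M9, among those lower, was kept only through the wild-type CT02 array. At CT14 the Clock mutant had 1 higher (against 4.13%) and 4 lower (8.51%, against 5.64%). The Cry-deficient arrays had 0 higher (against 2.73%) and 3 lower (6.38%, against 3.96%) at CT02, and 2 higher (4.26%, against 2.46%) and 1 lower (2.13%, against 2.27%) at CT14. With 47 members each gene is 2.13% of the set, so most of these shares lay within 1 or a few genes of the background. The members' median log2 ratios were between -0.15 and 0.06, against -0.01 to 0.00 over all genes.

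Counts of members whose arrays stood apart were added after the values had been seen. Both Clock mutant arrays lay below the other 4 in 9 members (19.1%, against 16.5% of all genes), Cd74, H2-Eb1, H2-Ke6, Ifi207, Ifi27, Ifitm1, Irf7, Irf9 and Tapbp, and above them in 5 (10.6%, against 16.9%), B2m, H2-Q1, Ifitm6, Stat3 and Stat5b. Of these, Stat5b was kept only through the Clock mutant CT02 array, and the second Stat3 probe set did not have this order. Both Cry-deficient arrays lay below the other 4 in 3 members (6.38%, against 10.1%) and above them in 3 (against 10.2%), H2-Eb1, Irf9 and Stat6. All CT14 arrays lay below all CT02 arrays in 10 members (21.3%, against 4.91%), and above them in 0 (against 3.36%). The 10 were the 6 bright class I chains, Ifi204, Ifitm2, Ifitm3 and Irf8. Ifi204 was under the floor on every CT14 array, so it was kept only through its CT02 arrays, on which its order rests. The shares for the mutants were near or below the background. The share for time stood above it, with most of its members among probe sets that share sequence. The count for time was 6 after quantile normalization, 6 after lowess correction and 1 in the unscaled deposited values, settings for which no share of all genes is at hand.

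Over 3 lists of other genes of the pathway, 9 of the 259 ratios of 37 kept genes were at least 2-fold (3.47%, against 7.26% over all kept genes). Of 16 interferon signalling genes 10 were kept, and Jak1, a kinase bound to the interferon receptors, gave 3524 then 3388 for wild type, 1121 then 2024 for the Clock mutant and 2864 then 3520 for the Cry-deficient mice. It was 3.14-fold below wild type at CT02 and 1.67-fold at CT14 in the Clock mutant. Ifnar2, a receptor chain for type I interferon, had a CT14 over CT02 log2 ratio of 1.41 in the Clock mutant and -1.05 in the Cry-deficient arrays. Of 16 antigen-processing genes 13 were kept, and Pdia3 (ERp57), a chaperone of class I assembly, read 11795 then 15002 on the wild-type pair, 4584 then 5357 on the Clock mutant pair and 14128 then 13512 on the Cry-deficient pair. It was 2.57-fold and 2.80-fold below wild type, with both Clock mutant values lowest, as for Tapbp, its partner in the loading complex. Of 22 other interferon-induced genes 14 were kept, and Samhd1 was at least 2.86-fold lower at CT14 in the Clock mutant. None of the kept genes of these 3 lists reached 2-fold between the times in wild type, or between the Cry-deficient and wild-type arrays at CT14.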

How the data were processed

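The authors deposited 1 intensity for each of 12488 probe sets on each array, whole numbers that can be negative, as read from the values. The software, background subtraction and scaling behind the deposited intensities were not given in the sources used here. For scaling, the geometric mean over arrays served as reference, and an array was divided by its median ratio to it across 6065 bright probe sets, all positive throughout. The pooled median, 606 scaled units, was the lowest value allowed before taking log2, and a gene took the value of its brightest probe set.

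Symbols came from the platform's annotation, checked by gene number against a RefSeq table of GRCm38.p6: 10855 probe sets had 1 symbol, 396 had several and 1237 had none, and only the first were used. They left out 15 probe sets that list a member beside another gene. RefSeq had a promoter entry for 56 of the 73 members. Where a gene had several annotated starts, only the one farthest upstream was searched. The 7 comparisons are ratios of single arrays, with 2-fold as threshold and no test. An additive fit of genotype and time was not used, because its error would be the interaction compared.

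Values on every array are given for Igtp, H2-M3, members past 2-fold and the brightest member of each role. The members and lists were chosen with earlier results of these data known. The steps were tested on simulated data and run in Python 3.11.15 with pandas 2.3.3, numpy 2.4.6 and statsmodels 0.14.6. The 8 alternatives were no scaling, quantile normalization, lowess correction, keeping dim genes, flooring at the 25th percentile, the mean over a gene's probe sets, plainly named probe sets (no suffix letter) alone, and taking scaling, floor and filter without the Clock mutant CT02 array, which stayed in the comparisons.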

Additional observations from a re-analysis of the deposited data

Results flagged for a closer look

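Differences are listed here where a member moved at least 1.5-fold one way in one comparison and at least 1.5-fold the other way in its counterpart, a size chosen after members' values had been seen. Each rests on single arrays, and none of the differences was tested. For H2-M3 the CT14 over CT02 log2 ratio was lower in the Cry-deficient arrays than in wild type by a difference of -2.11 and than in the Clock mutant by -2.16, and the Cry-deficient over wild type ratio differed by -2.11 between CT14 and CT02. These 3 differences are bounds, at least that far below 0, since values under the floor enter them. For H2-M9 the Cry-deficient over wild type log2 ratio differed by at least 1.58 between CT14 and CT02, the wild-type value at CT14 being under the floor. H2-M9 was kept only through its wild-type CT02 value, which enters this difference. For Mx2 the CT14 over CT02 log2 ratio differed by 1.35 between the Clock mutant and wild type. With 1 array a group, no array could be set against others of its group.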

How the results depend on the processing

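No paired analysis was possible because each group had 1 array. Of the 33 ratios past 2-fold, 27 remained past it in the values as deposited, 31 after quantile normalization, 31 after lowess, 33 with the lower floor, 33 with no filter, 25 of 31 with probe sets averaged, 23 of 23 on plainly named probe sets, and 29 of 31 with the Clock mutant CT02 array kept in the comparisons but not used to set scaling, floor and filter. With the floor at the 25th percentile 60 members were kept and the counts past 2-fold were higher, with shares of 13.3% to 31.7% against 14.8% to 26.9% of all genes: at CT14 over CT02, 8 for wild type, 15 for the Clock mutant and 14 with the Cry-deficient label, and against wild type 19 (CT02) and 17 (CT14) for the Clock mutant and 13 (CT02) and 12 (CT14) for the Cry-deficient mice. With that floor both Clock mutant arrays were above the other 4 in 8 members and both Cry-deficient arrays below them in 7. For these 2 counts no share of all genes is at hand, so they cannot be set against a background.

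As deposited, 5 members were past 2-fold between the times in the Clock mutant (10.6%, against 14.6% of all genes) and 11 between Clock mutant and wild type at CT02 (23.4%, against 21.2%). Both Clock mutant arrays were then below the other 4 in 18 members and above in 3. Both Cry-deficient arrays were above in 8 and below in 1. The CT14 arrays were above the CT02 arrays in 3 and below in 1. That last count was 6 after quantile normalization, 6 after lowess and 3 on plainly named probe sets. No share of all genes is at hand for these counts, so they cannot be read as particular to the members. Unscaled, the median of all genes for Clock mutant over wild type at CT02 was -0.52. On plainly named probe sets 0 members were past 2-fold between Cry-deficient and wild type at CT02 (against 6.56% of all genes). In that comparison no filter gave 5 (6.85%, against 4.22%). Between the times in wild type 1 member was past 2-fold on plainly named probe sets (3.1%, against 4.56%). Averaging the probe sets also gave 1 (2.17%, against 3.82%). With scaling, floor and filter set from the 5 arrays other than the Clock mutant at CT02, both Cry-deficient arrays were above the other 4 in 6 members. That count too has no share of all genes beside it.

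Of the ratios past 2-fold, 1 turned its sign. Ifi204 at CT14 over CT02 in the Clock mutant went from -1.14 to 0.16 when scaling, floor and choice of probe set were made without the Clock mutant CT02 array, because another probe set was then the brightest. Of the members' 7 medians 5 turned without scaling: at CT14 over CT02 to 0.38 in the Clock mutant and from -0.12 to 0.032 in the Cry-deficient arrays, against wild type at CT02 to -0.48 in the Clock mutant and -0.07 in the Cry-deficient arrays, and to 0.02 for the latter at CT14. The Clock mutant over wild type median at CT02 (0.06) also lay below 0 under 4 others (-0.02 after quantile normalization, -0.0037 after lowess, -0.02 with the lower floor and -0.01 on plainly named probe sets). Signal over background limits what can be read of dim members: between 0 and 5 kept members were at the floor on an array.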
